A study of Mus musculus with 2 samples.

Results

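The 10 genes described here are the cytotoxic effector and NK genes *Gzma*, *Gzmb*, *Prf1*, *Nkg7*, *Ccl5*, *Ifng*, *Klrd1*, *Ncr1*, *Klrb1c* and *Eomes*, taken by gene symbol from the 55386 features of the deposited matrices. They were followed in CD45+ cells sorted from the aortic adventitia, the outer coat of the artery, of mice of the strain RankCreRosa26eYFP, about 16 weeks of age. In this strain a Cre recombinase driven from the *Rank* locus switches on the reporter eYFP, and both groups carry it. One droplet library (10x Genomics 3′ v3.1) was made at steady state, from untreated mice, and 1 after 10 days of angiotensin II (AngII) at 1.8 µg per kg per min. Cells of 3 and 2 animals were pooled, so no animal can be followed and no test between the conditions could be made. All intervals below are 95% intervals that cover counting error only. Of 346 and 4419 barcodes, 306 and 4198 passed the filters, with a median of 9105 and 1092 UMIs (unique molecular identifiers, each counting 1 captured mRNA). No barcode was shared between the libraries. All 10 genes had at least 1 UMI in each library, and 57 of 306 and 652 of 4198 cells held a UMI of any of them.

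Natural killer (NK) cells and cytotoxic CD8 T cells kill by releasing granules. Perforin, the product of *Prf1*, opens the membrane of the target cell, and granzymes A and B, the proteases encoded by *Gzma* and *Gzmb*, enter through it. *Nkg7* encodes a protein of the granule membrane that takes part in granule release. The same cells secrete the chemokine CCL5, which attracts leukocytes, and interferon-γ, the product of *Ifng*, which activates macrophages. *Klrd1* encodes CD94, the partner chain of NKG2 receptors. *Ncr1* encodes the activating receptor NKp46 and *Klrb1c* the receptor NK1.1, while *Eomes* encodes a T-box transcription factor of NK cells and CD8 T cells. In the inflamed artery such cells are a minor fraction beside macrophages.

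RUNX, T-box and ETS factors are known regulators of killer lymphocytes, so the promoters of the granule genes and of *Ncr1*, the member with the largest share of its AngII UMIs in the NK gate, are shown with the matches to these motifs. RefSeq promoters (GRCm38.p6) were found for 8 of the 10 genes, and *Ccl5* and *Klrd1* had none. Each line gives the 250 bases before a RefSeq start of the gene, 5′ to 3′ on the strand of the gene, with motif matches in capitals. Distances are counted from that start, which for *Gzmb*, *Prf1* and *Ncr1* is not the GENCODE start given with the values further on.
Gzma: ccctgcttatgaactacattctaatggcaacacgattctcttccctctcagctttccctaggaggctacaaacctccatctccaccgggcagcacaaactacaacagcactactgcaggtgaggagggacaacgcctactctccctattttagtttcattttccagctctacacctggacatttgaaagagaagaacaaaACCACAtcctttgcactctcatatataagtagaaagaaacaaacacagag
Gzmb: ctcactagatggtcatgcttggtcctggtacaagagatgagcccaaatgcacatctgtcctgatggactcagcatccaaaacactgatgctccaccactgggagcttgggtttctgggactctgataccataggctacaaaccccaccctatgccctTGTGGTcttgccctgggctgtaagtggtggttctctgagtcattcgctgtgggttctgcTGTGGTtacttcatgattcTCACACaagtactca
Prf1: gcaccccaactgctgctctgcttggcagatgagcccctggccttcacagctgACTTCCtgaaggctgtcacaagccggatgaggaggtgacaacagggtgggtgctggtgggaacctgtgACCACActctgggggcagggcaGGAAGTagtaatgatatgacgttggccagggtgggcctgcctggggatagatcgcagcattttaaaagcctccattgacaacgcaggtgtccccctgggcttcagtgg
Ncr1: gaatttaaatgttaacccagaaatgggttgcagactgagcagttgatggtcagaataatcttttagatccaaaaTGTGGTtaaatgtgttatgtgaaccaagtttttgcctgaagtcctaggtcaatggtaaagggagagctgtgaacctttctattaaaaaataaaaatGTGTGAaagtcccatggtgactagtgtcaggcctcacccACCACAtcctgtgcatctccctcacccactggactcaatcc
The *Gzma* window lies at chr13:113100982-113101231 on the minus strand, the *Gzmb* window at chr14:56262335-56262584 on the minus strand, the *Prf1* window at chr10:61297586-61297835 on the plus strand and the *Ncr1* window at chr7:4337465-4337714 on the plus strand. Motifs were searched on both strands, and no match overlapped another. The RUNX core TGTGGT was found 50 bases before the start of *Gzma*, at 93 and 34 bases in *Gzmb*, at 130 bases in *Prf1* and at 176 and 41 bases in *Ncr1*. It was present in 6 of the 8 promoters and in 14.0% of 32851 promoters of the same length. The T-box half-site TCACAC lay 15 bases before *Gzmb* and 80 bases before *Ncr1*, in 3 of the 8 promoters and 12.3% of all. The ETS core GGAAGT was found at 198 and 108 bases in *Prf1*, in 2 of the 8 promoters and 19.7% of all. *Ifng* and *Eomes* held none of these letters in the window.

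Cells were placed in classes by marker gates: each cell joined the class with most detected markers out of 10 per class, with at least 2 different markers, and ties stayed unresolved (10 and 561 cells). None of the 10 genes and none of *Cd3d*, *Cd3e* and *Cd3g*, which encode chains of the T-cell receptor complex, was a gate marker. The NK gate held 3 cells at steady state (0.980%, 0.203 to 2.84) and 22 on AngII (0.524%, 0.329 to 0.792). The T gate held 37 (12.1%) and 212 cells (5.05%). A Cd3 UMI was found in 36 of 37 and in 188 of 212 T-gated cells, against 0 of 51 and 4 of 108 B-gated cells. Among NK-gated cells, 2 of 3 and 12 of 22 also held a Cd3 UMI, so these cells are named by their gate and not as pure NK cells. Their median depth was 7475 and 1500 UMIs, close to that of T-gated cells (8284 and 1412.5), and B-gated cells, which should lack these genes, had 5591 and 3683 UMIs.

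*Gzma* was the member that differed most between the libraries in T-gated cells. At steady state, 122 of its 123 UMIs lay in 2 NK-gated cells, at 5287 CPM (4390 to 6313), and 120 of them in 1 cell. CPM is the UMIs of a gene per 1000000 UMIs of the cells in the gate. No T-gated cell held it (0 of 37 cells, which allows a share of cells with a UMI of up to 8.11% at a floor of 3 counts). On AngII the NK gate held 453 UMIs in 11 of 22 cells, or 5387 CPM (4903 to 5907), and the T gate 655 UMIs in 58 of 212 cells (27.4%, 21.5 to 33.9), or 540 CPM (499 to 582). The NK-gated intervals of the libraries overlapped, but the steady-state value rested on 1 cell, as the other 2 NK-gated cells held 2 and 0 UMIs. T-gated cells held a UMI of the gene on AngII only. After thinning each cell to 500 UMIs, 12.3% of AngII T-gated and 40.9% of NK-gated cells held *Gzma*. In B-gated cells the gene had 0 UMIs at steady state and 1 on AngII (0.926% of 108 cells). In AngII macrophage-gated cells it was found in 41 of 2393 cells (1.71%), with 105 UMIs of which 46 were in 1 cell. *Gzma* lies on chromosome 13 at 113093825 to 113100981.

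*Gzmb* had fewer UMIs and was spread over few cells. In NK-gated cells it had 7 UMIs in 2 of 3 cells at steady state, or 303 CPM (122 to 625). On AngII it had 86 UMIs in 8 of 22 cells, or 1023 CPM (818 to 1263), with 49 UMIs in 1 cell. The intervals of the 2 libraries did not overlap, but without that cell the AngII level was 496 CPM (349 to 683), inside the steady-state interval. T-gated cells held 7 UMIs, all in 1 cell without a Cd3 UMI, at steady state, and 41 UMIs in 7 of 212 cells on AngII (33.8 CPM, 24.2 to 45.8). No B-gated cell held *Gzmb* in either library. *Gzmb* lies at 56258838 to 56262260 on chromosome 14, in a cluster of near relatives, so reads shared with them may have been split or lost.

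In NK-gated cells *Prf1* was at 520 CPM (269 to 908, 12 UMIs in 2 of 3 cells) at steady state. On AngII it was at 571 CPM (421 to 757, 48 UMIs in 10 of 22 cells), so the intervals overlapped. Of the 12 steady-state UMIs, however, 10 lay in 1 cell. In T-gated cells it had 10 UMIs in 4 of 37 cells at steady state, or 30.8 CPM (14.8 to 56.7), and 14 UMIs in 10 of 212 cells on AngII, or 11.5 CPM (6.30 to 19.3). B-gated cells held none. The AngII macrophage gate held 12 UMIs of *Prf1*, 10 of them in the cell that also held 46 of *Gzma*. *Prf1* lies at 61297833 to 61304680 on chromosome 10.

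*Nkg7*, of the granule membrane, was detected in both T and NK gates of each library. NK-gated cells held it at 2730 CPM (2098 to 3493, 3 of 3 cells) at steady state and 3021 CPM (2661 to 3416, 16 of 22 cells) on AngII. T-gated cells held 110 UMIs in 21 of 37 cells at steady state, or 339 CPM (279 to 408), and 294 UMIs in 39 of 212 cells on AngII, or 242 CPM (215 to 271). The T-gated intervals did not overlap, with steady state the higher, but without cells holding immature T genes (described further on) AngII was the higher, at 510 CPM against 355 CPM. At 500 UMIs per cell the shares of T-gated cells were 13.5% and 8.02% in place of 56.8% and 18.4%. No B-gated cell held *Nkg7*. The gene lies at 43437073 to 43438249 on chromosome 7.

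**Figure D1:**
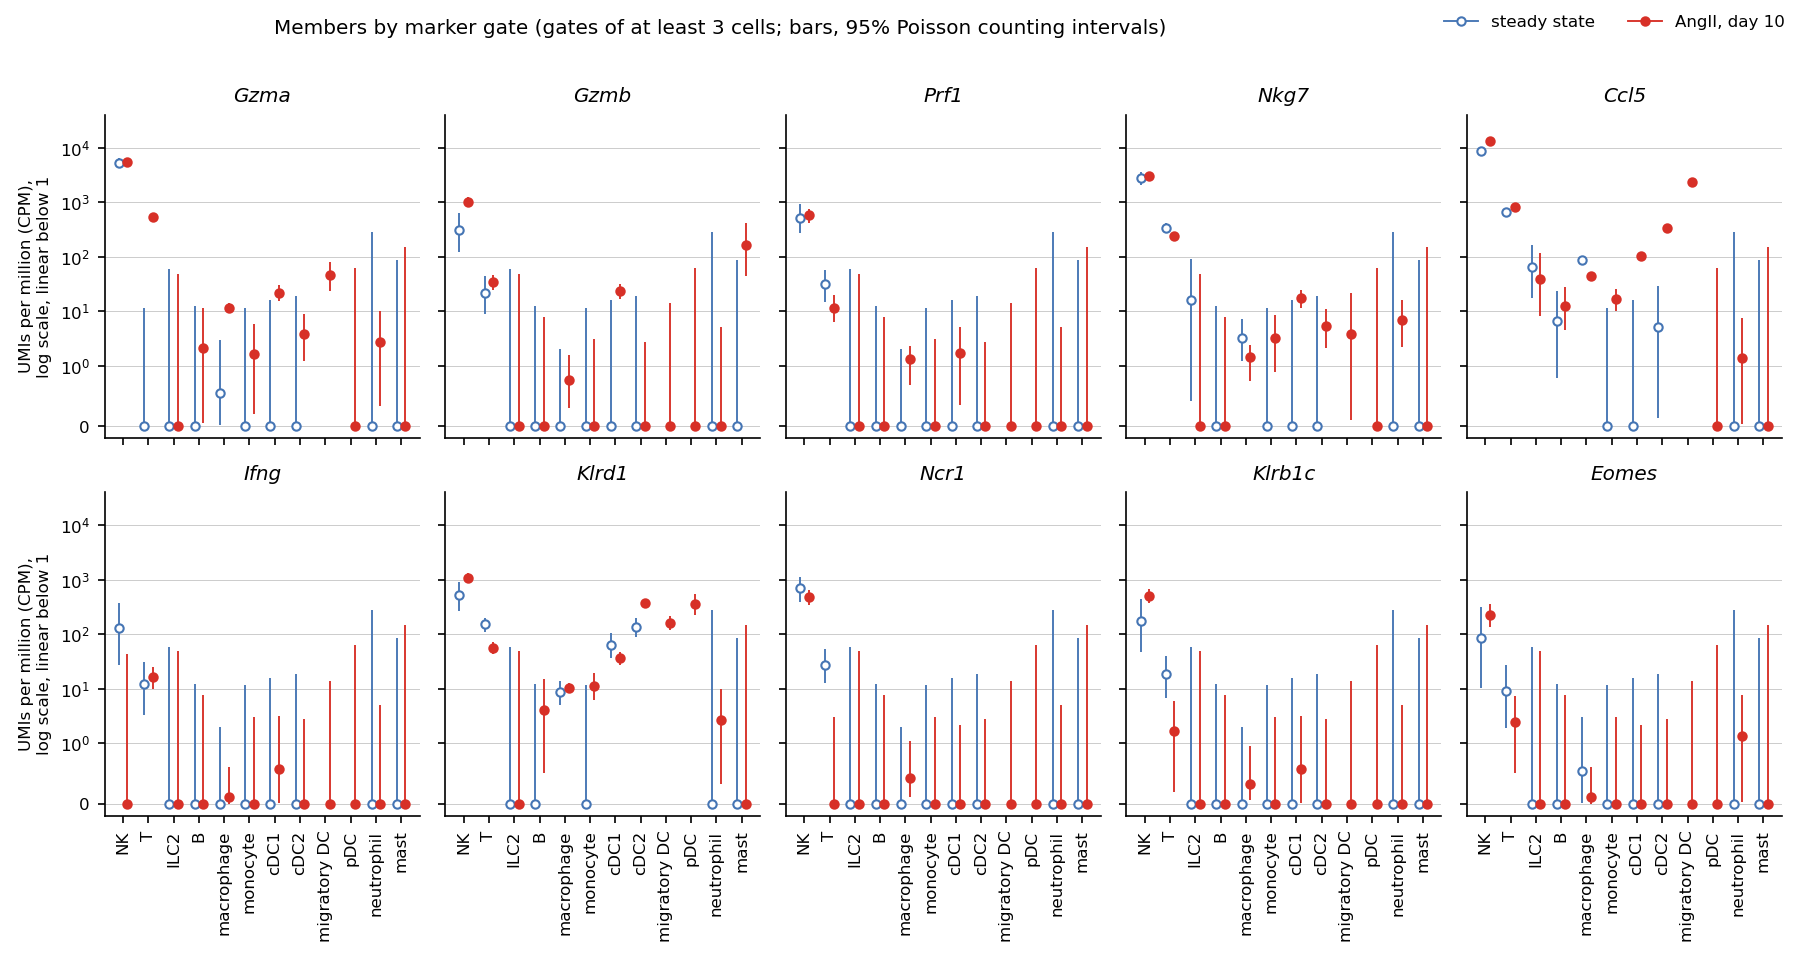
Each panel plots 1 member in CPM (log scale, linear below 1) by marker gate for steady state (open blue) and AngII (filled red), with 95% Poisson counting intervals, for gates of at least 3 cells. In the NK gate *Gzma* sat at 5287 and 5387 CPM, in the T gate at 0 and 540 CPM, and *Klrd1* and *Ccl5* were also present in dendritic cell gates.

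*Ccl5* had the most UMIs of the 10 genes, 766 and 3870. NK-gated cells held it at 8797 CPM (7628 to 10094, 3 of 3 cells) at steady state and 12975 CPM (12216 to 13768, 14 of 22 cells) on AngII, and without the cell richest in these genes the AngII value was 10373 CPM (9655 to 11130). T-gated cells held 216 UMIs in 9 of 37 cells (665 CPM, 580 to 760) and 991 UMIs in 22 of 212 cells (816 CPM, 766 to 869). Of the T-gated UMIs on AngII, the 2 richest cells held 286 and 241. The chemokine was not limited to lymphocytes, as migratory DC-gated cells on AngII held 612 UMIs in 16 of 35 cells, or 2316 CPM (2137 to 2508), and cDC2-gated cells 443 UMIs in 28 of 161 cells, or 330 CPM (300.1 to 362). Macrophage-gated cells held 86.8 CPM at steady state, with 97 and 60 of their 161 UMIs in 2 cells, and 44.5 CPM on AngII in 138 of 2393 cells (5.77%). That share lay near the 4.63% of AngII B-gated cells with a *Ccl5* UMI (6 UMIs, 12.4 CPM). The median depth, however, was 1095 UMIs in macrophage-gated and 3683 in B-gated cells. By CPM the macrophage gate was the higher, at 44.5 against 12.4. In all filtered cells *Ccl5* was at 210 CPM (195 to 225) and 215 CPM (208 to 222). *Ccl5* lies at 83525778 to 83530518 on chromosome 11.

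*Ifng* was rare, with 11 and 24 UMIs in 4 and 12 cells. On AngII, 20 of the 24 UMIs lay in 8 of 212 T-gated cells (16.5 CPM, 10.1 to 25.4), and NK-gated cells held none (0 of 22 cells, which allows a share of up to 13.6% and a level of up to 35.7 CPM, both at a floor of 3 counts). At steady state, 2 of 3 NK-gated cells held 3 UMIs together and both had Cd3 UMIs, while 1 T-gated cell held 4. B-gated cells held no *Ifng* UMI. All 4 cells with *Ifng* at steady state and 9 of 12 on AngII held a Cd3 UMI. *Ifng* lies at 118441046 to 118445892 on chromosome 10.

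*Klrd1* UMIs were spread over many gates, and the NK and T gates together did not hold most of them in either library. NK-gated cells held 12 UMIs in 2 of 3 cells at steady state (520 CPM, 269 to 908) and 90 in 16 of 22 cells on AngII (1070 CPM, 861 to 1316). On AngII, however, cDC2-gated cells held 507 of the 985 UMIs of the library (51.5%), in 75 of 161 cells (46.6%, 38.7 to 54.6), at 378 CPM (346 to 412). At steady state the cDC2 gate held 27 UMIs in 7 of 9 cells (137 CPM, 90.2 to 199) and the cDC1 gate 15 UMIs in 6 of 11 cells. The pDC gate on AngII held 21 UMIs in 4 of 10 cells. AngII B-gated cells held 2 UMIs in 2 of 108 cells (1.85%), and the cDC2 share after thinning to 500 UMIs was 16.8%. T-gated cells held 151 CPM (112 to 199.6, 19 of 37 cells) at steady state and 56.0 CPM (43.5 to 71.0, 16 of 212 cells) on AngII, where 26 of the 68 UMIs were in 1 cell. *Klrd1* lies at 129591782 to 129598775 on chromosome 6.

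*Ncr1*, *Klrb1c* and *Eomes* were found mainly in the NK gate on AngII, while at steady state that gate held 16 of 41, 4 of 13 and 2 of 8 of their UMIs. On AngII it held 41 of 46 *Ncr1* UMIs (89.1%), at 488 CPM (350 to 661) in 8 of 22 cells, and no T-gated cell held any (0 of 212 cells, which allows a share of up to 1.42%). At steady state *Ncr1* had 16 UMIs in all 3 NK-gated cells (693 CPM, 396 to 1126), 9 in 1 T-gated cell without a Cd3 UMI and 16 in 1 unresolved cell. *Klrb1c* had 43 of its 50 UMIs (86%) in 13 of 22 NK-gated cells on AngII (511 CPM, 370 to 689), and 4 UMIs in 3 of 3 cells at steady state (173 CPM, 47.2 to 444). *Klrb1c* has close relatives of the *Klrb1* family beside it, so its count is uncertain where reads are shared. *Eomes* had 19 of 24 UMIs (79.2%) in 8 of 22 NK-gated cells on AngII (226 CPM, 136 to 353), and 2 UMIs in 1 of 3 cells at steady state. In T-gated cells of the 2 libraries *Eomes* had 3 UMIs each, in 2 cells each. B-gated cells held no UMI of these 3 genes in either library. *Ncr1* lies at 4337724 to 4345164 on chromosome 7, *Klrb1c* at 128778485 to 128789215 on chromosome 6 and *Eomes* at 118478212 to 118486132 on chromosome 9.

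**Figure D2:**
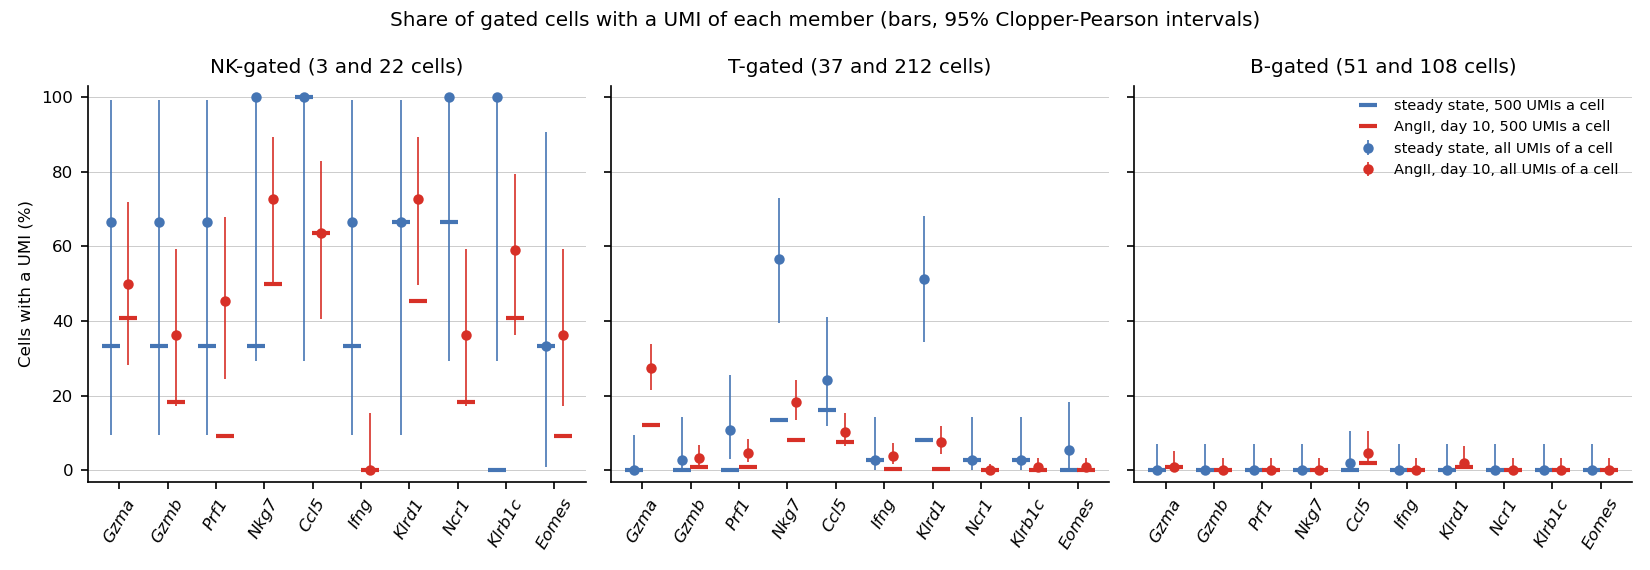
Percent of NK-gated (3 and 22), T-gated (37 and 212) and B-gated (51 and 108) cells with a UMI of each member, with all UMIs of a cell (points, 95% Clopper-Pearson intervals) and with 500 UMIs per cell (dashes). T-gated cells with *Gzma* make up 27.4% on AngII and 0 of 37 at steady state, and the B-gated shares reach 4.63% for *Ccl5* on AngII.

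The NK gate was made up of cells of unlike content. At steady state 1 NK-gated cell of 7475 UMIs had no Cd3 UMI and held 120 UMIs of *Gzma*, 6 of *Gzmb*, 10 of *Prf1*, 28 of *Nkg7*, 55 of *Ccl5*, 10 of *Klrd1* and 11 of *Ncr1*. The other two held 29 and 23 Cd3 UMIs, with 2 and 0 UMIs of *Gzma*, 2 and 0 of *Prf1* and 85 and 63 of *Ccl5*. On AngII, 10 cells with at least 4000 UMIs (4182 to 13850) held 2066 of the 2125 UMIs of the members in the gate, and each of them held *Prf1*, *Nkg7* and *Ccl5*. Of these, 7 had no Cd3 UMI, and they held 1794 UMIs and 7 to 9 members per cell. In those 7 cells *Gzma* ranged from 0 to 134 UMIs, *Ccl5* from 19 to 317 and *Prf1* from 2 to 11, so the amount of granule transcript differed widely between cells of 1 gate. The 3 with Cd3 UMIs held 14 UMIs of *Gzma* in all, 12 of them in 1 cell, against 433 in the 7 cells without. The remaining 12 NK-gated cells had 506 to 1661 UMIs, held 59 UMIs of the members, and 9 of them had a Cd3 UMI.

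Co-detection with Cd3 genes differed between the members. In all filtered cells, 16.7% at steady state and 12.5% on AngII held a Cd3 UMI. Of cells with *Gzma*, *Gzmb* or *Prf1*, 7 of 9 (77.8%, 40.0 to 97.2) and 107 of 162 (66.0%, 58.2 to 73.3) also held one, and at 500 UMIs per cell the values were 0 of 2 and 38 of 88 (43.2%). On AngII the shares were 98 of 146 for *Gzma* (67.1%, 58.9 to 74.7), 12 of 24 for *Gzmb*, 14 of 24 for *Prf1* and 64 of 102 for *Nkg7* (62.7%, 52.6 to 72.1). They were lower for *Ccl5*, at 58 of 300 (19.3%, 15.0 to 24.3), for *Klrd1*, at 40 of 241 (16.6%, 12.1 to 21.9), and for *Ncr1*, at 2 of 11. For *Klrb1c* and *Eomes* the counts were 7 of 19 and 4 of 12. At steady state Cd3 UMIs were found in 26 of 30 cells with *Nkg7* (86.7%, 69.3 to 96.2), in 25 of 40 with *Klrd1* and in 14 of 23 with *Ccl5*. At 500 UMIs per cell, which evens out the depth, the counts were 4 of 13 and 28 of 179 cells for *Ccl5*, 1 of 8 and 8 of 87 for *Klrd1* and 4 of 8 and 26 of 52 for *Nkg7*. Too few steady-state cells remained to order the libraries by these shares.

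By UMIs, the split of *Gzma* on AngII was more even, as cells with a Cd3 UMI held 59.5% of its 1300 UMIs, and 49.5% of those of *Gzmb*, 27.3% of those of *Prf1* and 10.9% of those of *Ncr1*. Within the NK gate, 4 of 11 cells with *Gzma* had a Cd3 UMI and they held 3.75% of its UMIs there. Within the T gate it was 55 of 58 cells and 99.4% of the UMIs. Of the 98 AngII cells with *Gzma* and a Cd3 UMI, 55 were T-gated, 4 NK-gated, 24 in other gates and 15 unresolved. The 525 AngII cells with a Cd3 UMI were 188 T-gated, 12 NK-gated, 233 in other gates (161 macrophage-gated) and 92 unresolved. Of all 525, 18.7% held *Gzma*, 2.29% *Gzmb*, 2.67% *Prf1* and 12.2% *Nkg7*. At steady state the 51 such cells were 36 T-gated, 2 NK-gated, 10 in other gates and 3 unresolved. Of these 51, 3.92% held *Gzma* and 51.0% *Nkg7*. The 2 sets thus differ in their cell classes.

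**Figure D3:**
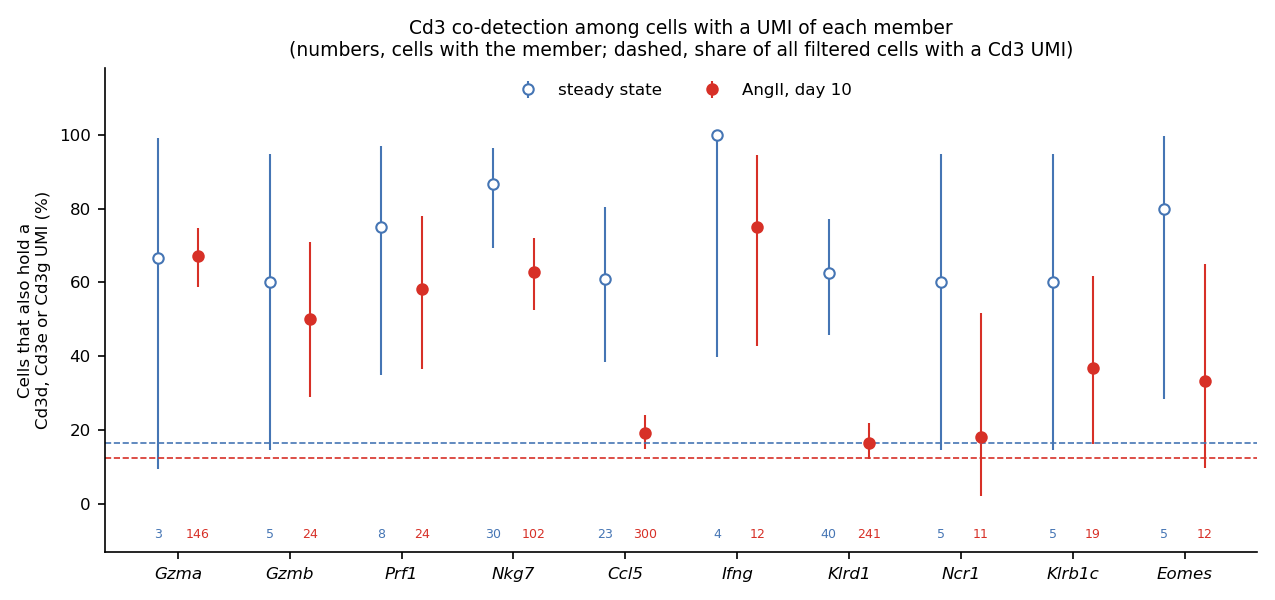
For cells with a UMI of each member, the percent that also held a *Cd3d*, *Cd3e* or *Cd3g* UMI, with 95% Clopper-Pearson intervals and the number of cells along the base, for steady state (open) and AngII (filled). *Gzma* on AngII stands at 67.1% of 146 cells and *Klrd1* at 16.6% of 241 cells, and the dashed lines mark 16.7% and 12.5% of all filtered cells.

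The *Gzma* of AngII T-gated cells was found in many cells without the other effector genes. Of the 58 T-gated cells with *Gzma*, 52 had no UMI of *Gzmb*, *Prf1*, *Nkg7* or *Ccl5*. These 52 cells held 359 UMIs of *Gzma* and the other 6 held 296, so by UMIs the split was near even. Of these 52, 30 (57.7%, 43.2 to 71.3) held a UMI of *Dntt*, *Rag1*, *Rag2*, *Ptcra* or *Arpp21*, which T cells use while they rearrange their receptor genes in the thymus. The list was chosen after these cells had been seen. Of 38 T-gated cells with *Gzmb*, *Prf1*, *Nkg7* or *Ccl5* but no *Gzma*, 1 held such a UMI, and of 116 with none of the 5 genes, 27. The median depth was 1774.5 UMIs in the 52 cells, 6690 in the 38 and 967.5 in the 116. Counts of cells with a gene were thus compared at unlike depth. Among the 52 cells *Dntt*, the enzyme that adds bases at receptor gene joints, was found in 30, *Arpp21* in 14 and *Rag1* in 5. *Stmn1* and *Mki67*, genes of dividing cells, were found in 34 and 14 of them, and *Il7r*, the interleukin-7 receptor of mature T cells, in 2, against 24 of the 38 effector cells without *Gzma*.

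Cells with an immature T gene UMI made up 60 of 212 AngII T-gated cells (28.3%, 22.3 to 34.9), 1 of 37 at steady state and 0 of 22 NK-gated cells. Such a UMI was not limited to the T gate, as 136 of all 4198 AngII cells held one (3.24%). Among them were 34 of 2393 macrophage-gated (1.42%), 24 of 561 unresolved and 3 of 10 pDC-gated cells. *Gzma* was found in 32 of these 60 cells, with 320 UMIs (490 CPM, 438 to 546). In the same cells *Gzmb* had 0 UMIs, *Prf1* 1, *Nkg7* 8 and *Ccl5* 26. The cell richest in *Gzma* among them had 75 UMIs of it and 14 of *Dntt* in 44358 UMIs, and no UMI of another member. In the 152 T-gated cells without an immature T gene UMI, *Gzma* had 335 UMIs in 26 cells (598 CPM, 535 to 665), *Gzmb* 41, *Prf1* 13, *Nkg7* 286 and *Ccl5* 965. In that group 3 cells with *Cd8b1*, of 5720, 8229 and 9593 UMIs, held 121, 97 and 74 UMIs of *Gzma*. The same cells held 174, 241 and 286 of *Ccl5*, 26, 37 and 41 of *Nkg7* and 3, 11 and 13 of *Gzmb*. These 3 cells were the T-gated cells with most *Ccl5* UMIs.

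**Figure D4:**
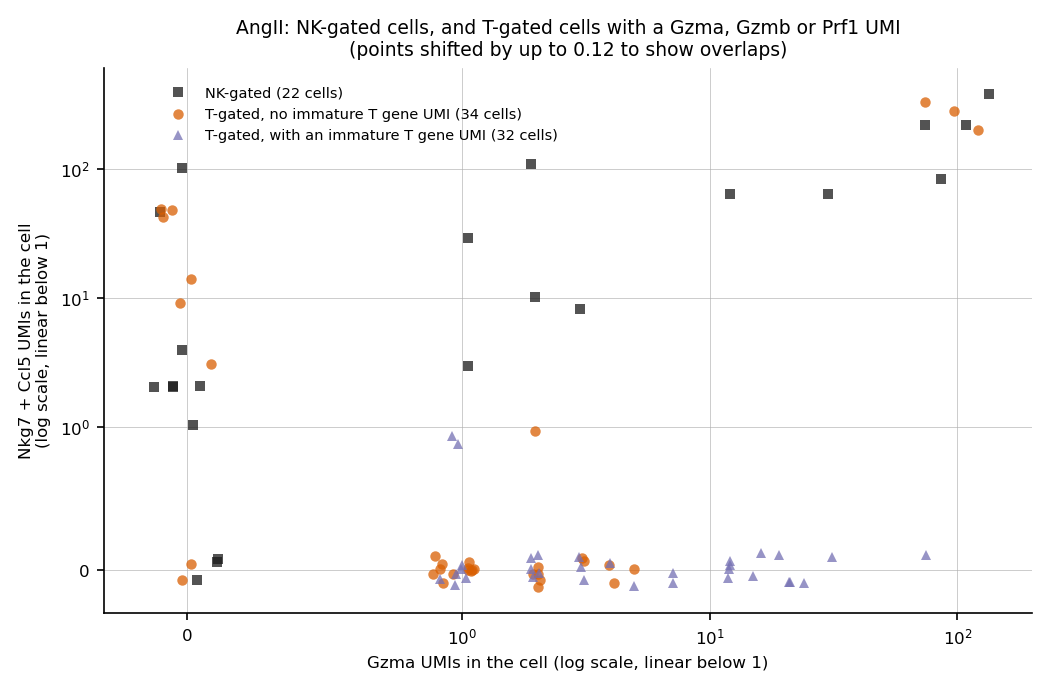
Each point is 1 AngII cell, with its *Gzma* UMIs on the horizontal axis and the sum of its *Nkg7* and *Ccl5* UMIs on the vertical axis (log scales, linear below 1), for 22 NK-gated cells and T-gated cells with a *Gzma*, *Gzmb* or *Prf1* UMI, 34 without and 32 with an immature T gene UMI. Cells with an immature T gene UMI lie along the bottom with up to 75 *Gzma* UMIs, and the 3 T-gated cells with 74 to 121 lie beside the NK-gated cells.

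The T-gated cells were also split by *Cd8a* or *Cd8b1* and *Cd4*. On AngII, 47 cells held Cd8 genes only, 30 *Cd4* only, 23 both and 112 neither. Their median depth was 5551, 6362, 24069 and 838 UMIs, so the split itself and the counts of cells depend on depth. *Gzma* had 369 UMIs in 16 of the 47 cells with Cd8 only (1268 CPM, 1142 to 1404), 240 in 16 of the 23 with both (446 CPM, 392 to 506) and 5 in 1 of the 30 with *Cd4* only (21.7 CPM, 7.03 to 50.5). Cells with both, a pattern of thymocytes, held 1 UMI of *Nkg7* and 2 of *Ccl5*. *Nkg7* had 212 UMIs in 19 of 47 Cd8-only cells (729 CPM, 634 to 833) and 58 in 11 of 30 *Cd4*-only cells (251 CPM, 191 to 325). *Ccl5* had 780 and 139 UMIs in 7 and 6 cells of these groups. For *Ifng* the order was the other way, with 18 UMIs in 6 of 30 *Cd4*-only cells (78.0 CPM, 46.2 to 123) and 2 in 2 of 47 Cd8-only cells. At steady state all 17 Cd8-only cells held *Nkg7* and 14 of 17 held *Klrd1*, while 1 of 8 *Cd4*-only cells held *Nkg7*.

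Between the gates of 1 library, a gene was compared from 20 UMIs in both gates together and called at a CPM ratio of at least 2 or at most 0.5. On AngII, 9 of the 10 members were higher in NK-gated than in T-gated cells, where 12.9% of the 7084 genes compared were higher and 15.8% lower, and no member was lower. The ratios were 9.99 for *Gzma* (8.84 to 11.3), 12.5 for *Nkg7* (10.5 to 14.8), 15.9 for *Ccl5* (14.6 to 17.3), 19.1 for *Klrd1* (13.8 to 26.6), 30.3 for *Gzmb* (20.6 to 45.1) and 49.5 for *Prf1* (26.8 to 97.2). *Eomes* was 91.4-fold higher (26.9 to 482, 19 against 3 UMIs), *Klrb1c* 310-fold (80.9 to 2645, 43 against 2 UMIs) and *Ncr1* at least 197-fold, at a floor of 3 UMIs in the T gate. *Ifng*, with 0 against 20 UMIs, could not have been called lower. A floor of 3 UMIs in the NK gate is 35.7 CPM, above the 16.5 CPM of the T gate. The median ratio was 24.7 for the members and 0.849 for all genes compared. The Cd3 genes had ratios of 0.294, 0.313 and 0.307.

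At steady state 6 members had enough UMIs and all 6 were higher in the 3 NK-gated cells, against 18.5% of 2449 genes higher and 10.8% lower. *Klrd1* was 3.44-fold higher (1.67 to 6.57), *Nkg7* 8.06-fold (5.81 to 11.1), *Ccl5* 13.2-fold (10.9 to 16.1), *Prf1* 16.9-fold (6.68 to 43.6), *Ncr1* 25.0-fold (10.4 to 64.2) and *Gzma* at least 572-fold. Without the cell that held 120 *Gzma* UMIs the *Gzma* level of the gate was 128 CPM (15.5 to 463). Cd3 genes were no lower in these cells than in T-gated cells, with ratios of 0.988 to 1.20. Summed over the 10 members, the NK-gated level was 15.1 times (13.2 to 17.3) the T-gated level at steady state and 14.7 times (13.8 to 15.6) on AngII, and 8.20 times on AngII without cells holding immature T genes.

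A further 71 genes were grouped in 10 lists, of the killing program but also of T subset genes and of receptors and ligands of the members. On AngII 48 of them could be compared besides 5 gate markers. Of these 48, 29 were higher and 3 lower in NK-gated cells, beside 12.9% and 15.8% of all genes compared. Both comparable inhibitors of granzymes were higher, *Serpinb9* 31.8-fold (18.3 to 56.9) and *Serpinb6b* 17.3-fold (10.8 to 28.0), which guard a killer cell against its own granzymes. Of 6 genes of granule content and processing, 2 were higher, *Ctsw* 12.6-fold (8.78 to 18.0), a cathepsin of cytotoxic cells, and *Cst7* 6.79-fold (3.50 to 12.6), an inhibitor of cathepsins. *Srgn*, the proteoglycan that packs granules, had a ratio of 1.61 (1.22 to 2.08) and *Ctsc*, which activates granzymes, was called in neither direction. Of 4 comparable release genes, *Lyst* (2.51, 1.02 to 5.37) and *Unc13d* (2.89, 0.718 to 8.62, 4 against 20 UMIs) passed the fold limit, the latter with an interval that includes 1, and *Rab27a* and *Stxbp2* did not. The death ligand *Fasl* was 12.03-fold higher (5.64 to 25.3) and the chemokine *Ccl4* 37.5-fold (17.5 to 87.2). Of 12 comparable NK receptors and adaptors 11 were higher, among them *Klrb1a* 75.1-fold (28.4 to 250.4), *Itga2* 20.6-fold (9.91 to 44.1) and *Cd160* 8.56-fold (4.31 to 16.5), and all 5 comparable transcription factors were, among them *Tbx21* 5.78-fold (1.84 to 15.8) and *Runx3* 3.43-fold (2.10 to 5.40). The NK gate markers were mostly NK receptor genes, so higher levels of related receptors, in the lists and among the members, were partly set by the gate. *Klrb1a*, with 26 against 5 UMIs, reached the limit of 20 UMIs through the NK gate alone. The 3 lower genes were *Cd4*, *Cd8a* and *Cd8b1*, all of the T subset list. The 8 other granzymes had too few UMIs, with 12 of *Gzmk* in AngII T-gated cells and none in NK-gated cells. At steady state 10 of 22 comparable genes of these lists were higher and 2 lower, beside 18.5% and 10.8% of all genes compared.

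Between the conditions the members did not move together in T-gated cells. Of 7 compared, 1 was higher on AngII and 2 lower, where 22.9% of 7521 genes were higher and 6.9% lower. *Gzma* was at least 58.4-fold higher, and *Prf1* (0.374, 0.155 to 0.942) and *Klrd1* (0.371, 0.253 to 0.547) were lower. *Nkg7* had a ratio of 0.715 (0.572 to 0.898), *Ccl5* of 1.23 (1.06 to 1.43), *Gzmb* of 1.57 (0.696 to 4.14) and *Ifng* of 1.34 (0.448 to 5.38). On the steady-state side 1 T-gated cell had no Cd3 UMI and held 9 UMIs of *Ncr1*. It held 4 of the 10 *Prf1* UMIs of the gate, 7 of 7 of *Gzmb* and 83 of 216 of *Ccl5*. Of *Nkg7* it held 16 of 110 and of *Klrd1* 5 of 49, so these ratios rest in part on that cell. The median ratio was 1.23 for the members and 1.20 for all genes compared. The 10 genes summed to a ratio of 1.35 (1.21 to 1.50), and to 0.925 (0.829 to 1.03) without *Gzma*. For *Gzma*, *Gzmb* and *Prf1* together the ratio was 11.2 (6.92 to 19.3), set by *Gzma*. Of 42 comparable genes of the further lists, 10 were higher and 9 lower.

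Without cells holding an immature T gene UMI, 4 of 7 members were higher in AngII T-gated cells and none lower, where 15.8% of 5451 genes were higher and 3.87% lower. *Gzma* was at least 61.7-fold higher, *Gzmb* 3.24-fold (1.44 to 8.55), *Ifng* 2.76-fold (0.926 to 11.1) and *Ccl5* 2.47-fold (2.13 to 2.87). *Prf1* (0.718, 0.291 to 1.83) and *Klrd1* (0.722, 0.490 to 1.07) then lay within the fold limit, and *Nkg7* had a ratio of 1.44 (1.15 to 1.81). The steady-state side still included the T-gated cell without a Cd3 UMI. The summed ratio was 2.31 (2.07 to 2.57). When Cd3 genes were added to the T gate it was 0.780 (0.722 to 0.843), so the direction of the sum depended on which cells entered the gate.

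In NK-gated cells 4 of 9 members were higher on AngII and none lower, where 12% of 794 genes were higher and 7.05% lower. These were *Gzmb* at 3.37 (1.57 to 8.64), *Klrb1c* at 2.95 (1.07 to 11.3), *Eomes* at 2.61 (0.629 to 23.1) and *Klrd1* at 2.06 (1.12 to 4.13), with 7, 4, 2 and 12 UMIs at steady state. The *Gzmb* call rested on single cells, as the AngII level without the cell with 49 UMIs was 496 CPM against 303 CPM, under the fold limit of 2, and 6 of the 7 steady-state UMIs were also in 1 cell. *Gzma* (1.02, 0.833 to 1.25), *Nkg7* (1.11, 0.837 to 1.48) and *Prf1* (1.10, 0.574 to 2.27) had ratios near 1, *Ccl5* was at 1.47 (1.27 to 1.72) and *Ncr1* at 0.703 (0.386 to 1.34). At steady state 1 cell held 120 of the 122 *Gzma* UMIs and 10 of the 12 *Prf1* UMIs of the gate, so these 2 ratios rest mostly on that cell. The sum was 1.31 (1.19 to 1.46), and 0.998 (0.873 to 1.15) when Cd3 genes were added to the T gate, which left 15 and 1 NK-gated cells. Cd3 genes had ratios of 0.366 to 0.412 between these gated cells, so the 2 groups also differed in their Cd3 content, and its part in the result was not tested. Of the further lists, 5 of 23 comparable genes were higher on AngII. Among them were *Serpinb9* (6.04, 1.58 to 51.4), *Zeb2* (4.12, 1.04 to 35.5), *Runx3* (2.20, 0.667 to 11.4) and *Il18rap* (7.41, 1.22 to 303). These had 2, 2, 3 and 1 UMIs at steady state. They reached the limit of 20 UMIs almost wholly through the AngII gate, which held 84085 UMIs against 23076. The same holds for *Eomes*, with 19 UMIs on AngII and 2 at steady state. A gene with so few steady-state UMIs that was lower on AngII would not have been compared. The intervals of *Runx3* and *Eomes* include 1. Over all filtered cells the 10 genes were at 386 CPM at steady state and 399.7 CPM on AngII, a ratio of 1.04 (0.979 to 1.10).

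Across the 13 gate and library points with at least 20 cells, the genes most like each member in log2(CPM + 10) were sought among 11598 genes. The AngII NK gate was the only NK gate among these points. For genes found mainly in that gate, r therefore rests largely on a single point. *Ncr1*, *Klrb1c* and *Eomes* shared the same leading gene, *Klra4* (r = 0.981, 0.994 and 0.998), an NK receptor that was a gate marker, followed by *Klrb1f*. *Prf1* was most like *Xcl1* (r = 0.992), also a gate marker, then *Sytl2* and *Fasl*, and *Nkg7* most like *Il2rb*, a gate marker, and *Ctsw* (r = 0.988). *Gzmb* was most like *Sytl2* (r = 0.972), then *Cd160* and the gate marker *Klre1*. *Ifng* stood with T genes, *Cd5*, *Themis* and *Trgc1* (r = 0.987, 0.984 and 0.979), of which *Cd5* and *Themis* were gate markers, and its r with *Eomes* was 0.0405. *Gzma* was most like *Thoc5*, *Prpf38a* and *Noc4l* (r = 0.963, 0.962 and 0.951). The points share libraries and depth, and these values are a description.

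Transcripts of receptors for the products of these genes were found in macrophage-gated cells, the largest gate (141 and 2393 cells). *Ccr1*, a receptor of CCL5, was at 122 CPM at steady state and 268 CPM on AngII in macrophage-gated cells and at 0 UMIs in NK-gated cells of both libraries. *Ifngr1* was at 254 and 363 CPM in macrophage-gated and 687 and 616 CPM in monocyte-gated cells. *H2-T23*, whose product Qa-1 is bound by CD94 receptors, was at 311 and 207 CPM in T-gated and 239 and 265 CPM in macrophage-gated cells. EYFP UMIs, the lineage reporter, were found in 0 of 3 and 1 of 22 NK-gated cells and in 1 of 37 (2.70%) and 6 of 212 (2.83%) T-gated cells. The shares were 74.5% and 14.5% of macrophage-gated cells, and 0 of 51 and 3 of 108 B-gated cells. Macrophage-gated cells had a median of 10450 UMIs at steady state and 1095 on AngII. Detection depends on depth, so these shares do not order the libraries.

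Single droplets outside the lymphocyte gates carried a large part of some members. At steady state 1 unresolved cell of 22433 UMIs held 26 of the 48 *Gzmb* UMIs of the library, with 43 of *Nkg7*, 70 of *Ccl5* and 16 of *Ncr1*, and 1 migratory DC-gated cell of 48618 UMIs held 8 of *Gzmb*, 84 of *Ccl5* and 44 of Cd3 genes. On AngII 1 cDC1-gated cell of 26343 UMIs held 40 of the 182 *Gzmb* UMIs, 35 of *Gzma*, 63 of *Ccl5* and 14 of Cd3 genes. A macrophage-gated cell of 7712 UMIs held 46 of *Gzma*, 10 of *Prf1* and 3 of *Ncr1* with no Cd3 UMI and 9 of the macrophage gene *C1qa*. These cells held UMIs of more than 1 class, and their part in the results was not tested.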

How the data were processed

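CD45+ adventitial cells of 2 libraries (1 per condition) were analysed. Per the labels and the study's methods, the authors used Cell Ranger 3.1.0, GRCm38.p6, GENCODE annotation with the eYFP sequence, and deposited raw UMI counts per gene and cell barcode, with no normalization. The totals were 4009678 UMIs at steady state and 20481854 on AngII. A UMI counts a molecule once, and counts follow transcript 3′ ends, so levels were not compared between genes.

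The cell filter asked for 300 to 6500 detected genes and no more than 5% of UMIs from mitochondrial genes, which 88.4% and 95.0% of barcodes passed. Cells were gated on 13 classes of 10 markers. Scrublet (scanpy 1.11.5) called 1 and 0 doublets, too few to be a working rate, so doublets were left in. Summed counts were given as CPM with exact Poisson intervals, shares with Clopper-Pearson intervals and ratios with conditional binomial intervals (scipy 1.17.1, numpy 2.4.6, pandas 2.3.3, Python 3.11.15). A count of 0 was read against a floor of 3 counts. With 1 library per condition there are no replicates and no p-value. Named genes are the 10 members, the Cd3 genes, the further lists, the genes among the 3 most like each member, and, named after their values were seen, immature T genes and genes of single cells. The members and lists were chosen with earlier results of these data known. Gates, cell filter, doublets, depth and the richest cell were varied, and cells with immature T genes were left out as an alternative added after seeing the data. The gating and intervals were tested on simulated data. Some further genes are not reported here. Gene positions are those of GENCODE on GRCm38.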

Additional observations from a re-analysis of the deposited data

How the results depend on the processing

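Of the 8 summary values (NK-gated shares, summed ratios and Cd3 shares), those of the settings that changed them are given here, and 54 of 70 alternative values stayed within the counting interval. No paired analysis was possible because each condition had 1 library, and for the same reason no replicate could be left out.

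With Cd3 genes added to the T gate, the summed AngII over steady state ratio turned from 1.31 to 0.998 in NK-gated and from 1.35 to 0.780 in T-gated cells, and the AngII NK over T ratio was 21.2. With a lead of 2 markers over the next class, the AngII NK-gated share was 0.286%, the T-gated ratio 1.81, and the NK over T ratios 15.6 on AngII and 20.05 at steady state. Without the richest cell the NK-gated and T-gated ratios were 1.59 and 1.54. Thinned to 1000 UMIs they were 1.66 and 3.95, and the NK over T ratios 10.1 and 24.2. Without cells with immature T genes (added after seeing the data) the T-gated ratio was 2.31, the NK over T ratio 8.20 and the Cd3 share of lytic cells on AngII 55.8%. The cause of these shifts was not tested. Of the values of single genes, 625 stayed within the interval and 135 moved. At 1092 UMIs per AngII cell and with 3 NK-gated cells at steady state, *Ifng*, *Klrb1c* and *Eomes* had at most 50 UMIs in a library.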
